A study of Mus musculus with 3 samples.

Results

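Meiotic double-strand break sites were examined inside 5 very long genes that encode proteins of the synapse and of neuronal adhesion, Cntnap2, Ptprd, Nrxn3, Dlg2 and Ctnna2. A DMC1 site was counted in a gene when the deposited centre of its DMC1 peak fell between the start and end of the RefSeq gene span (GRCm38.p6, the same build as mm10). The 5 spans held 66 of the 24586 sites of the table, and 23631 of all sites were autosomal. Libraries were made from whole adult testis of male F1 hybrids between C57BL/6J (B6) and CAST/EiJ (CAST), with the Prdm9 genotype HUM/CAST, so each animal carried a humanized allele (HUM) and the CAST allele of Prdm9. DMC1 ChIP-seq came from a 10-week-old male and H3K4me3 ChIP-seq of micrococcal nuclease digested chromatin from an adult male, with 1 library of each. An MNase-seq library of the same genotype was not analysed here. With 1 library per assay no difference below has a replicate check, no p-value was computed, and the number of reads behind a single site is unknown.

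PRDM9 binds its DNA motif in meiotic cells through an array of zinc fingers, methylates the neighbouring nucleosomes at H3K4 and thereby places the breaks. DMC1 is the recombinase that coats the single-stranded DNA at a break under repair, so its ChIP-seq signal marks both where breaks form and how long they last. In an F1 hybrid the homologues differ in sequence, and PRDM9 can bind a motif on only 1 of them. The genes studied here are known from neurons. Cntnap2 encodes Caspr2, an adhesion protein that gathers potassium channels beside the nodes of myelinated axons, Ptprd a presynaptic receptor tyrosine phosphatase, and Nrxn3 a neurexin that binds neuroligins across the synaptic cleft from separate alpha and beta promoters. Dlg2 encodes PSD-93, a scaffold beneath glutamate receptors, and Ctnna2 the neuronal alpha-catenin that couples cadherins to actin. Their expression in the testis was not analysed here.

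Of the 66 sites, 2 had their centre within 5 kb of a transcription start in the RefSeq promoter table, and the 250 bases upstream of those starts are shown because they are the promoter sequence nearest to any of the sites. The first belongs to 4930567K12Rik, a long non-coding RNA gene inside Dlg2 on the minus strand (chr7:92119512-92119761). The DMC1 centre at 92119536 lies inside this window, 25 bases before the start, and the 11 capital letters are the bases around it. The second is the most distal of the 3 starts listed for Nrxn3, on the plus strand (chr12:89812233-89812482), and the site at 89815617 lies 3134 bases beyond that start, outside the window.
4930567K12Rik: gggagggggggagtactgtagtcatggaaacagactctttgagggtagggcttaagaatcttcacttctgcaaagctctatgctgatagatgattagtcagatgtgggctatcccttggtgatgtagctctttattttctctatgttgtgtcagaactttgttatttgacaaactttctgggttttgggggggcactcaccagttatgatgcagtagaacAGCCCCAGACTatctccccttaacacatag
Nrxn3: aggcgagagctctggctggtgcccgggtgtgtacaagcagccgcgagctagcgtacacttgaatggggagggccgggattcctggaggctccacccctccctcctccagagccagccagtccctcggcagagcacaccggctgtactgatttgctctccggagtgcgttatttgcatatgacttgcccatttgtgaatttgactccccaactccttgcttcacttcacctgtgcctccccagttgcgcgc
Both runs are read 5′ to 3′ on the strand of the gene. The table lists 2 starts for Cntnap2, whose nearest site lay 19.9 kb away, 3 for Dlg2 (40.3 kb) and 1 for Ctnna2 (27.9 kb). None is listed for Ptprd. A Ptprd site lay inside the span of the non-coding gene Gm42303 and an Nrxn3 site inside that of Gm40537. Exon and intron could not be assigned because the annotation used gives spans only.

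The 3 adhesion genes and Dlg2 held similar numbers of sites and Ctnna2 held few. Cntnap2 (chr6:45060061-47301393) had 16 sites in 2.24 Mb, Ptprd (chr4:75941237-78211742) 16 in 2.27 Mb, Nrxn3 (chr12:88722701-90334935) 14 in 1.61 Mb and Dlg2 (chr7:90476188-92449246) 16 in 1.97 Mb. Ctnna2 (chr6:76881637-77979815) had 4 in 1.10 Mb. The densities were 7.14 sites per Mb in Cntnap2 (exact 95% Poisson interval 4.08 to 11.6), 7.05 in Ptprd (4.03 to 11.4), 8.68 in Nrxn3 (4.75 to 14.6), 8.11 in Dlg2 (4.64 to 13.2) and 3.64 in Ctnna2 (0.992 to 9.33). These intervals cover counting error only and overlap between all 5 genes.

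Pooled, the genes held 7.18 sites per Mb (5.55 to 9.13), against 9.89 over all autosomes and 12.95 over all autosomal protein-coding spans. All autosomal protein-coding genes of 500 kb or more, 216 in number, had a median of 8.34 sites per Mb (quartiles 5.30 and 13.4), and 3 of them had no site. Nrxn3 ranked 104th of these by density, Dlg2 115th, Cntnap2 123rd, Ptprd 124th and Ctnna2 190th, so 4 of the genes sat near the middle of the long genes and Ctnna2 in the lowest 12.5%. The genes nearest in density were Lrba, Ptprd and Kcnip4 for Cntnap2, Kcnip4, Erc2 and Cntnap2 for Ptprd, Fam155a and Robo1 for Nrxn3, Grm8, Trpm3 and Dcc for Dlg2, and Adgrl3, A830018L16Rik and Sgcz for Ctnna2.

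The surroundings gave another order. The stretches on either side of each gene, each as long as the gene, held 6.80 sites per Mb when pooled, which is below the genes and not above them. Ptprd had 16 sites against 5 in the stretch on each side. Cntnap2 lay on a step, with 8 sites in the flank of lower coordinates and 32 in the flank of higher coordinates. Nrxn3 had fewer sites than either flank (15 and 20), Dlg2 had 19 and 8 beside it, and Ctnna2 10 and 3. This comparison was chosen after the data had been examined.

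**Figure D1:**
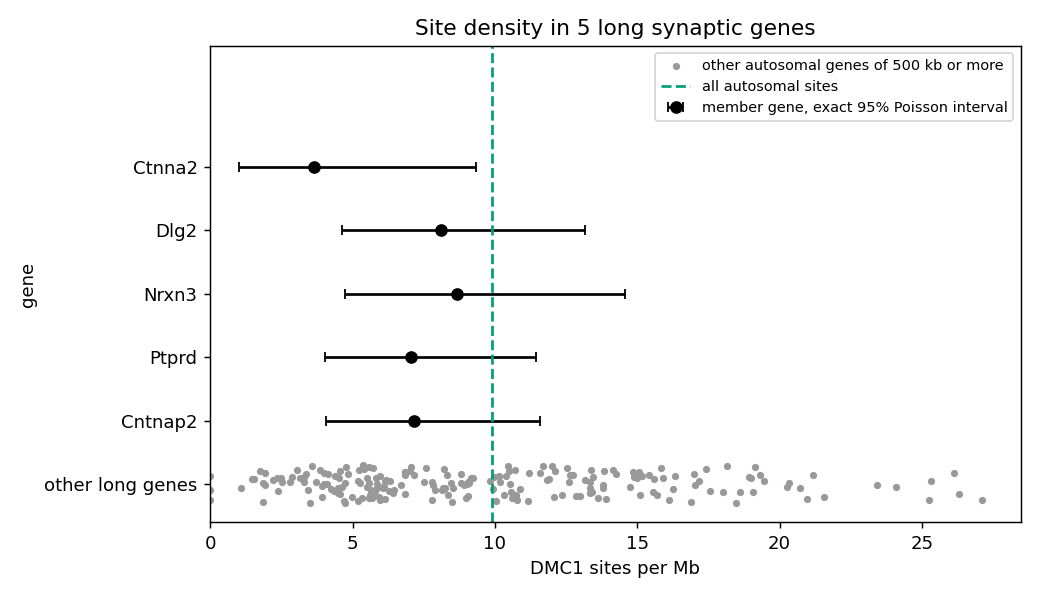
Density of DMC1 sites (sites per Mb) in each gene with its exact 95% Poisson interval for counting error, over the other autosomal protein-coding genes of 500 kb or more (grey points, spread vertically for legibility) and the autosomal value (dashed line). All 5 genes lie left of the autosomal 9.89 sites per Mb, and the interval of Ctnna2 alone ends below it.

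Cntnap2, Ctnna2 and Ptprd had long stretches without a site. In Cntnap2, transcribed from the end of lower coordinates, the first 525 kb downstream of the start had no site. This empty part belonged to a gap of 1273 kb between neighbouring sites, at percentile 99.75 of the 23612 gaps between neighbouring autosomal sites, whose median was 56.4 kb. In Ctnna2, transcribed from the other end, all 4 sites lay within 286 kb of that end of the span, and the remaining 813 kb, 74.0% of the span, had none. That stretch contains Lrrtm1, a nested gene for a postsynaptic ligand of neurexins, and is part of a gap of 948 kb (percentile 99.5). Ptprd had no site in its last 494 kb by coordinate and another empty stretch of 497 kb in its middle. In Nrxn3 and Dlg2 the longest of 13 and 15 gaps between sites were 314 and 339 kb, at percentiles 94.4 and 95.2 of single autosomal gaps. As each is the longest of several gaps, these percentiles do not show an uneven spread in either gene. The median of the 61 gaps inside the genes was 94.8 kb.

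The closest neighbours were a pair in Dlg2, 2.53 kb apart, which were a HUM site at 91833845 (DMC1 60.8, in the authors' unit as all signals here) and a CAST site at 91836376 (DMC1 111). Both leaned to the B6 homologue, with B6 shares of DMC1, the part of the signal that lies on the B6 homologue, of 0.860 and 0.991. The closest pair in Cntnap2 was 6.68 kb apart and both were CAST sites (46427448 and 46434125, DMC1 261 and 178). In Nrxn3 a HUM and a CAST site stood 8.74 kb apart, in Ptprd a CAST and a HUM site 20.1 kb, and in Ctnna2 a pair of CAST sites 33.9 kb.

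**Figure D2:**
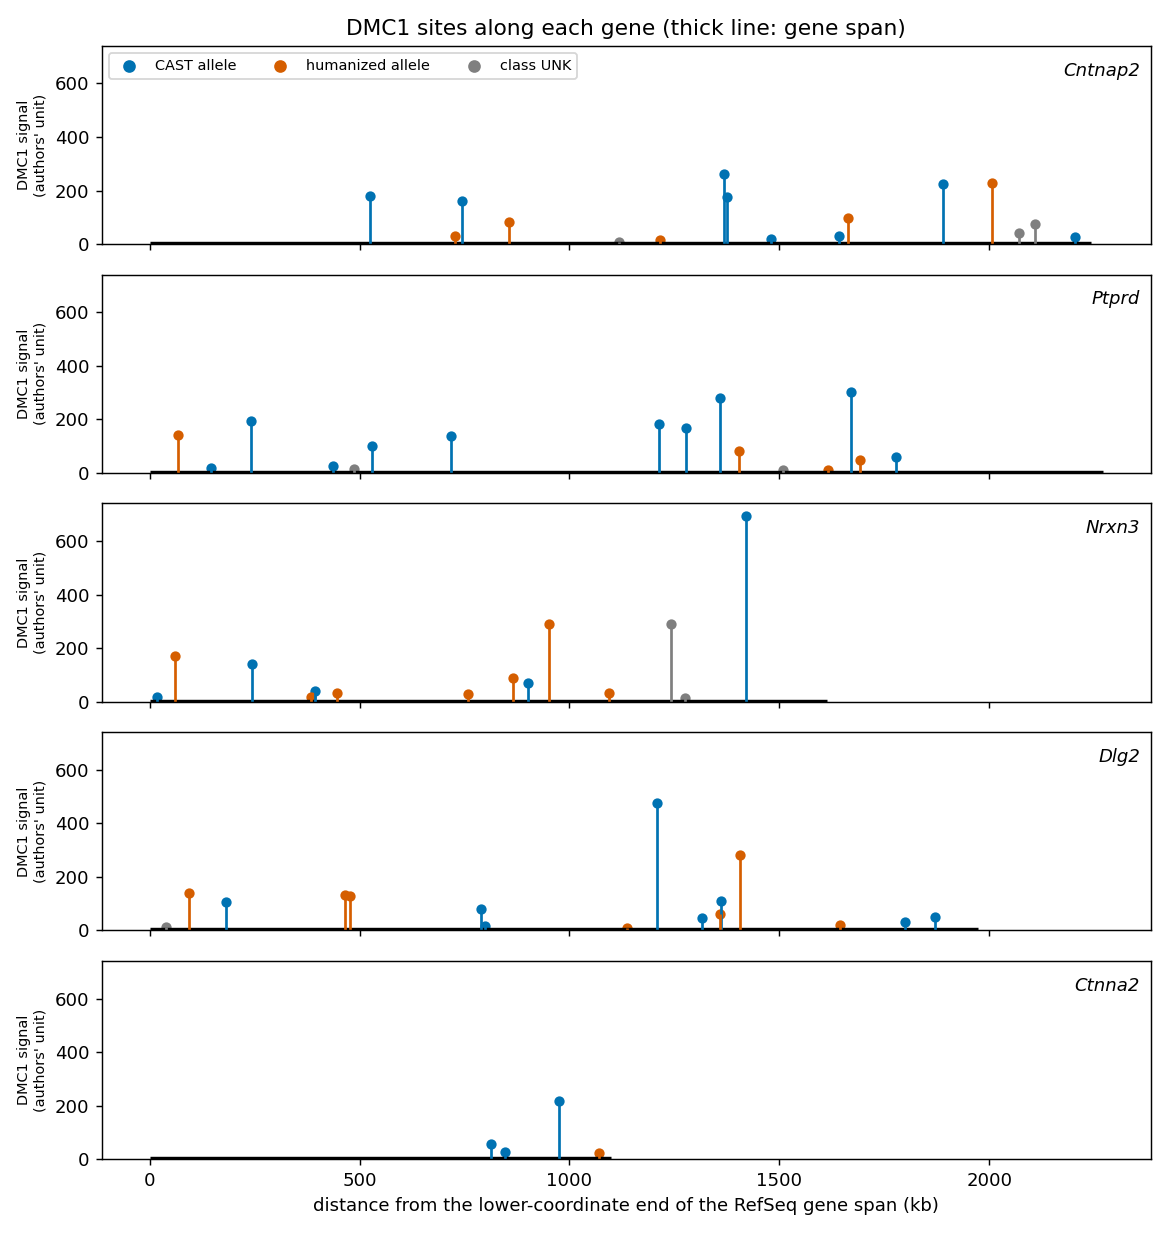
DMC1 signal (authors' unit) of each site by its distance in kb from the lower-coordinate end of the gene span (thick line), coloured by the PRDM9 class the authors inferred. The empty first 525 kb of Cntnap2 and first 813 kb of Ctnna2 are visible, as is the Nrxn3 site of DMC1 694.

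The PRDM9 classes divided much as elsewhere when the genes were pooled. The CAST allele had 34 of the 66 sites, 51.5% (exact 95% binomial interval 38.9% to 64.0%, counting error only), against 52.4% of all autosomal sites, and the humanized allele 24, or 36.4% (24.9% to 49.1%), against 39.3%. The other 8 were of class UNK, which the file headers do not define, or 12.1% against 8.37% for UNK and KO together over the autosomes. By gene, CAST sites numbered 8 of 16 in Cntnap2, 10 of 16 in Ptprd, 5 of 14 in Nrxn3, 8 of 16 in Dlg2 and 3 of 4 in Ctnna2. HUM sites outnumbered CAST sites only in Nrxn3, with 7. The percent of CAST sites ran from 35.7% in Nrxn3 (12.8% to 64.9%) to 75% in Ctnna2 (19.4% to 99.4%), and these intervals overlap. Of the summed DMC1 signal of the genes, CAST sites carried 63.9% and HUM sites 29.7%, next to 64.5% and 30.9% over the autosomes.

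Single sites differed widely in strength within each gene. In Cntnap2 the DMC1 signal ran from 9.30 at a UNK site (46179095) through a median of 77.7 to 261 at a CAST site (46427448). Ptprd ran from 10.2 at a HUM site (77557450) through 91.7 to 303 at a CAST site (77612225), which also had the highest H3K4me3 enrichment of the 66, 51.0. In Nrxn3 the range was 12.4 at a UNK site (89997971), a median of 55.8, and 694 at a CAST site (90143937). The ranges of these 3 adhesion genes overlapped, with 1 site of Nrxn3 far above the rest.

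The Nrxn3 site of 694 was at percentile 98.96 of autosomal sites and alone held 36.0% of the DMC1 signal of its gene. The next Nrxn3 sites were a HUM site at 89674820 (DMC1 291) and a UNK site at 89965671 (DMC1 289). Dlg2 ran from 10.9 at a HUM site (91614229) through 70.6 to 474 at a CAST site (91685425), at percentile 95.1. In Ctnna2 the 4 values were 56.0, 26.2 and 217 at CAST sites and 21.5 at the HUM site nearest the start of the gene. The site of 217 (77856949) held 67.6% of the signal of Ctnna2, more than all its other sites together.

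Over all 66 sites the median DMC1 was 73.0 (exact order-statistic interval for a median 40.0 to 111) against 61.4 for autosomal sites, and median H3K4me3 was 10.95 (8.69 to 17.7) against 11.6. Sites whose H3K4me3 value repeats that of an earlier site anywhere in the genome were then left out. The H3K4me3 medians were 18.8 and 16.4, so the direction turned. This took out 26 of the 66 sites, unevenly, with 2 of 16 in Ptprd and 9 of 14 in Nrxn3. Repeats also differed by chromosome, with 26.4% of sites on chromosome 4, which holds Ptprd, and 53.3% on chromosome 12, which holds Nrxn3. The autosomal value was 41.1%. The autosomal sites with the highest 25% of DMC1 signals, from 167 upward, included 17 of the 66, or 25.8%. There were 5 each in Cntnap2 and Ptprd, 4 in Nrxn3, 2 in Dlg2 and 1 in Ctnna2. CAST sites of the genes had a median DMC1 of 103 and HUM sites 71.0, next to 82.7 and 52.0 over the autosomes. H3K4me3 went the other way in these genes, with CAST sites at a median of 9.56 (7.23 to 17.7) and HUM sites at 16.3 (8.86 to 20.9), while over the autosomes it was 13.2 and 10.5. The intervals of the alleles overlap in both marks. Summed per Mb of span, DMC1 was 740 in Cntnap2, 784 in Ptprd, 1195 in Nrxn3, 868 in Dlg2 and 292 in Ctnna2, against 1257 over the autosomes.

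DMC1 followed H3K4me3 across the sites, with a Spearman correlation of 0.760 over 66 sites, next to 0.714 over all autosomal sites. Both are descriptions, since all sites share the same libraries. The median of DMC1 divided by H3K4me3, a ratio without absolute meaning because the units differ, was 5.43 in Cntnap2, 5.60 in Ptprd, 5.54 in Nrxn3, 5.27 in Dlg2 and 5.36 in Ctnna2. The autosomal median was 6.05. On the log2 scale the pooled median was 2.44 (2.22 to 2.64) and the autosomal one 2.60, inside that interval, and the intervals of single genes were wider, for example 1.29 to 3.73 in Nrxn3. The lowest log2 ratio, -0.59, belonged to the Dlg2 site beside the start of 4930567K12Rik, with DMC1 21.1 and H3K4me3 31.8, which the authors gave to the humanized allele and marked as shared with a PRDM9-independent H3K4me3 peak. Such overlap was marked at 2 of the 66 sites, 3.03%, against 8.68% of autosomal sites, and the other was in Ptprd. The next lowest ratio was at a Cntnap2 UNK site (47130730; DMC1 42.2, H3K4me3 33.2), which was not marked. The highest ratio was at the strongest Nrxn3 site, with H3K4me3 28.3 for its DMC1 of 694.

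**Figure D3:**
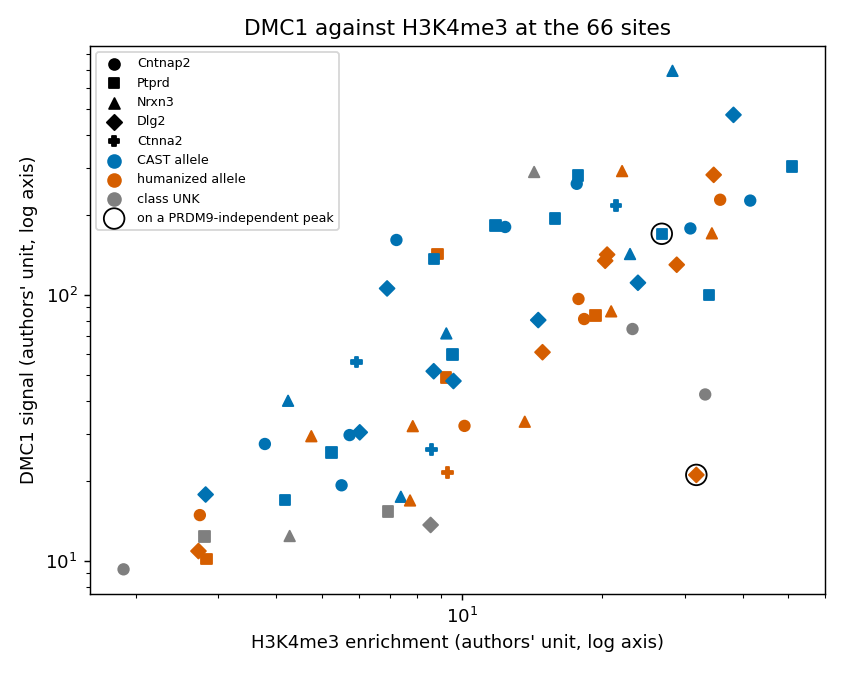
DMC1 signal against H3K4me3 enrichment at the 66 sites (authors' units, log axes), with the gene as symbol and the PRDM9 class as colour. The circled sites overlap a PRDM9-independent H3K4me3 peak, and the circled Dlg2 site (DMC1 21.1, H3K4me3 31.8) lies lowest relative to its H3K4me3.

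The homologue that carried the DMC1 signal varied within and between the genes. A DMC1 B6 share was given at 60 of the 66 sites and missing at 6, 9.09%, against 7.68% of autosomal sites. It was over 0.9, nearly all on the B6 homologue, at 14 of them, 23.3% (exact 95% binomial interval 13.4% to 36.0%), against 19.3% of autosomal sites with a share. It was under 0.1, nearly all on the CAST homologue, at 12, or 20% (10.8% to 32.3%), against 14.3%. A share of 0.3 to 0.7, used on both homologues, was found at 23 sites, 38.3% (26.1% to 51.8%), against 45.6%. The autosomal values lie inside all 3 intervals. H3K4me3 shares were over 0.9 at 9 of 61 sites, 14.8% (6.98% to 26.2%), against 8.95%, and under 0.1 at 5, or 8.20% (2.71% to 18.1%), against 4.86%.

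The 13 shares of Cntnap2 ran from 0 through a median of 0.504 to 0.853. Of these, 7 were between 0.3 and 0.7, 53.8% (25.1% to 80.8%), near the autosomal 45.6%. None was over 0.9, and the exact interval for 0 of 13 runs from 0% to 24.7%, which includes the autosomal 19.3%. The 2 shares under 0.1 were 0.0217 at a CAST site (45804703; H3K4me3 share 0.128) and 0 at the UNK site at 47130730, where no H3K4me3 share is given. No DMC1 share is given at 3 Cntnap2 sites, all with an H3K4me3 share, and 2 of them are among the strongest of the gene (46427448 and 46950953, DMC1 261 and 226, H3K4me3 shares 0.358 and 0.465). Over the autosomes 0.237% of the sites in the highest 25% of DMC1 have an H3K4me3 share and no DMC1 share.

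Ptprd had more shares near 0 than near 1. Of its 15 shares, 6 were under 0.1, 40.0% (16.3% to 67.7%), against 14.3% of autosomal sites, and 2 were over 0.9. The autosomal value lies below that interval, which covers counting error only and was read for 1 of 5 genes. The 6 sites were 3 CAST, 2 HUM and 1 UNK site, so both alleles contributed, and their shares ran from 0.00752 to 0.0870. H3K4me3 was under 0.1 at 4 of the 16 Ptprd sites, 25% (7.27% to 52.4%), against 4.86% of autosomal sites. At the HUM sites at 76007562 and 77632310 the DMC1 shares of 0.0159 and 0.0727 stood beside H3K4me3 shares of 0.0411 and 0.0435. The strongest of the 6, a CAST site at 77300847 (DMC1 281), had shares of 0.0144 and 0.0955.

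The marks disagreed at a Ptprd CAST site at 77219166, where DMC1 (signal 169) was almost entirely on the CAST homologue with a share of 0.00752 and H3K4me3 was even, 0.538. This is the Ptprd site marked as overlapping a PRDM9-independent peak. A UNK site at 76427245 had 0.0870 and 0.373. These were the 2 of 28 sites with an H3K4me3 share of 0.3 to 0.7 whose DMC1 share was over 0.9 or under 0.1, or 7.14%, against 6.28% over the autosomes. The next site along from 77219166, 64.0 kb away at 77155124 and also of the CAST allele, was on the opposite homologue with 0.992 for DMC1 and 0.964 for H3K4me3.

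In Nrxn3 4 of 14 shares were over 0.9, 28.6% (8.39% to 58.1%), against 19.3% of autosomal sites, and 2 were under 0.1, 14.3% like the autosomal 14.3%. The median of Nrxn3 was 0.426, below the autosomal 0.470. The highest was 0.994 at the strongest site, whose H3K4me3 share was 0.959, and the lowest 0.0191 at the UNK site of DMC1 289 (89965671), whose H3K4me3 share was 0.138. In Nrxn3 5 of 7 HUM sites had shares of 0.3 to 0.7, counting the site at 89588117 with 0.30. Over all 5 genes 13 of 22 HUM sites did, 59.1% (36.4% to 79.3%), against 42.8% of autosomal HUM sites. In Dlg2 6 of 14 shares were over 0.9, 42.9% (17.7% to 71.1%), an interval that contains the autosomal 19.3%, 2 were under 0.1, and the median was 0.763. The 6 were 4 CAST and 2 HUM sites, among them the strongest of the gene (0.914, H3K4me3 share 0.780). In Ctnna2 the shares were 0.955, 0.30 and 0.985 at the CAST sites and 0.432 at the HUM site, with H3K4me3 shares of 0.976, 0.327, 0.877 and 0.778.

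The strongest sites were as follows, without homologue shares of equally strong autosomal sites to set beside them. In Cntnap2 the sites above 167 that have a DMC1 share were all even, at 0.564 (45584899, CAST, DMC1 180), 0.504 (46434125, CAST, DMC1 178) and 0.399 (47067451, HUM, DMC1 228). In Ptprd the 5 sites above 167 were all CAST sites, as were 3928 of the 5908 autosomal sites in the highest 25% of DMC1. Of the 5 Ptprd sites 4 were one-sided, against 31.4% of autosomal CAST sites of any strength. They had 0.988 (76182857, DMC1 194) and 0.992 (77155124, DMC1 182) on B6, with the sites at 77219166 and 77300847 on the CAST homologue. The strongest of the gene, at 77612225, was less skewed with 0.286. The strong HUM sites of Nrxn3, at 89674820 and 88783216 (DMC1 170), and of Dlg2, at 91882448 (DMC1 282), had shares of 0.384, 0.468 and 0.408, whereas the strongest CAST sites of both genes were over 0.9.

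Weighted by DMC1, the mean B6 share was 0.361 in Ptprd, 0.420 in Cntnap2, 0.601 in Nrxn3, 0.742 in Dlg2 and 0.887 in Ctnna2, and 0.572 over the autosomes. In Ctnna2 most of the weight lies on 1 site. The genes held 61 pairs of neighbouring sites, including pairs that could not be judged because a DMC1 share was missing. Some pairs lay on opposite homologues, one over 0.9 and the next under 0.1. They occurred in Ptprd (pairs of CAST sites 64.0 and 497 kb apart) and in Nrxn3 (UNK sites 32.3 kb apart, 0.0191 and 0.957). Another was in Dlg2 (CAST sites 72.4 kb apart, 0.0435 and 0.976). The corresponding count over all autosomal neighbours is not given here.

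**Figure D4:**
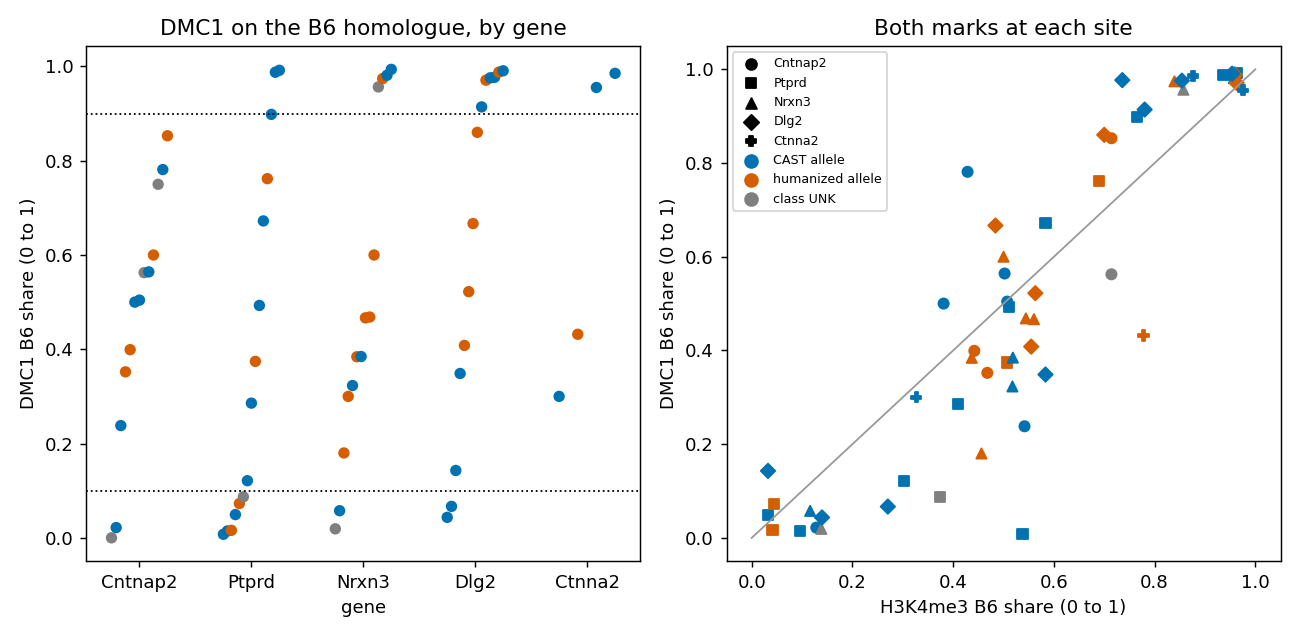
Left, DMC1 B6 share of each site by gene, sorted within the gene, with dotted lines at 0.1 and 0.9; right, DMC1 share against H3K4me3 share at the 56 sites with both, with the line of equality. Colour is the PRDM9 class. Cntnap2 has no point above 0.9, Ptprd has 6 below 0.1, Dlg2 has 6 above 0.9, and the Ptprd point far below the line is the site with shares of 0.538 and 0.00752.

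Between the alleles, one-sided DMC1 (over 0.9 or under 0.1) was found at 17 of 32 CAST sites with a share, 53.1% (34.7% to 70.9%), against 31.4% of autosomal CAST sites, and at 5 of 22 HUM sites, 22.7% (7.82% to 45.4%), against 36% of autosomal HUM sites. The order of the alleles in these genes was thus opposite to that over the autosomes, but their intervals overlap. The HUM interval contains its autosomal 36%, whereas the autosomal 31.4% lies below the CAST interval. Neither difference from the autosomes was tested, and the intervals cover counting error only. The one-sided CAST sites were 10 on B6 and 7 on CAST, 31.2% and 21.9%, next to 21.3% and 10.2% of autosomal CAST sites. By gene, those over 0.9 and under 0.1 numbered 0 and 1 of 6 in Cntnap2 and 2 and 3 of 10 in Ptprd. In Nrxn3 they numbered 2 and 1 of 5, in Dlg2 4 and 2 of 8, and in Ctnna2 2 and 0 of 3. H3K4me3 was one-sided at 9 of 34 CAST sites, 26.5% (12.9% to 44.4%), against 14.5%, and at 5 of 22 HUM sites, 22.7%, against 13.8%.

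Relative to H3K4me3, DMC1 was higher at one-sided sites than at sites used on both homologues, as over the autosomes. The 26 one-sided sites of the genes had a median DMC1 of 133, a median H3K4me3 of 10.5 and a median ratio of 8.08, and the 23 sites with a share of 0.3 to 0.7 had 80.3, 13.6 and 4.96. The corresponding autosomal ratios were 9.08 and 5.48. At the 56 sites with both shares, the DMC1 share was farther from 0.5 than the H3K4me3 share at 44, 78.6%, against 78.5% over the autosomes, and lower than it at 30, 53.6%, against 56.3%.

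Other genes of the same families and their binding partners were counted from a list of 42, of which 41 were autosomal. Sites lay in 31 of the 41, and the 10 without a site were all shorter than 100 kb, the longest being 51.2 kb. Summed gene by gene, the 41 held 136 sites in 17.6 Mb, 7.73 per Mb, next to 9.89 per Mb over the autosomes. CAST sites made up 52.2% and HUM sites 37.5%, next to 52.4% and 39.3% over the autosomes. DMC1 shares over 0.9 were found at 14 of 121 sites, 11.6% against 19.3% of autosomal sites, and under 0.1 at 10, or 8.26% against 14.3%. Lrrtm3 lies inside Ctnna3 and Lrrtm2 inside Ctnna1. All these sums therefore count the nested lengths and the 2 Lrrtm3 sites with both genes. Among close relatives, Ctnna3, the other very long alpha-catenin gene, had 13 sites in 1574 kb (8.26 per Mb), Cntnap5a, a paralogue of Cntnap2, 2 in 903 kb (2.22), and Dlg1, a scaffold related to Dlg2, 6 in 210 kb (28.6).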

How the data were processed

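The series holds 3 libraries, 1 each of DMC1 ChIP-seq, H3K4me3 ChIP-seq and MNase-seq. The single table deposited by the authors has 1 line per DMC1 hotspot. The submitters' processing notes name BWA and mm10, and give 0.7.15 as the BWA version for H3K4me3 but none for DMC1. Per the file headers, the DMC1 and H3K4me3 signal values come from the authors' peak callers, in their own units, and the raw H3K4me3 reads are credited to Li et al.; whether these are the reads of the deposited H3K4me3 library is not stated. Scaling to depth is not given, so depth and counting error per site are unknown. Per the file headers, the fraction columns give the signal on the B6 homologue over that on both. H3K4me3 values repeat an earlier site's value at 26 of the 66 sites and at 41.1% of autosomal sites. Expression was not analysed here, so the labelled tissue was not checked against marker genes.

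Sites were assigned to RefSeq spans by position, ends included, and summarised with Python 3.11.15, pandas 2.3.3 and scipy 1.17.1; the interval functions were tested on simulated data. No statistical test was run. Background values are for all autosomal sites, with chromosome length taken from the first to the last site. Poisson and Clopper-Pearson binomial intervals (95%) and the order-statistic interval of a median treat sites as independent and describe these libraries only. The genes, the partner list and the limits of 0.1, 0.3, 0.7, 0.9, 5 kb and 500 kb were chosen with earlier results of these data known. Described singly within each gene were the strongest and weakest site, those with the highest and lowest DMC1 share, and the closest pair; for each gene the 3 long genes nearest in density were named, except where a result is not reported here. Other sites, and the relatives Ctnna3, Cntnap5a and Dlg1, were named after their values were seen.

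Alternatives were a span widened by 10 kb, leaving out each gene, sites on PRDM9-independent peaks or sites of other classes, other summaries and limits, and H3K4me3 in place of DMC1. The sequences are from the RefSeq promoter table of GRCm38.p6. No genome sequence was used, so the planned 200 bases around the strongest sites were not read or searched for PRDM9 motifs; a motif search of the promoter windows is not reported here.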

Additional observations from a re-analysis of the deposited data

How the results depend on the processing

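The 8 pooled values were recomputed in 77 alternatives, and 75 stayed inside the interval of the value reported. The exceptions were the median H3K4me3, which was 18.8 without sites of a repeated H3K4me3 value (16.4 over the autosomes treated alike), and the percent of sites under 0.1, which was 8.20% when the H3K4me3 share replaced the DMC1 share (4.86% over the autosomes). The count of 75 includes alternatives that could not move a value. Another background for site density changes only the comparison, and the span widened by 10 kb added no site, so that only the density changed. The side of the autosomal value changed in 14 alternatives. Site density was above its comparison only against the flanks of equal length. The CAST percent turned higher without Nrxn3 (55.8%) and among CAST and HUM sites only (58.6% against 57.1%), the percent over 0.9 turned lower without Dlg2 (17.4%), and the percent under 0.1 turned lower without Ptprd (13.3%), so each of these last leanings rests on 1 gene. The median DMC1 became lower than the autosomal value as a geometric mean (65.1 against 67.3). The others were 4 for the median H3K4me3, counting the one above, and 4 for the median DMC1 share, which differ little from the autosomal values. No paired analysis was possible because each assay has 1 library and no groups were compared. The unknown number of reads per site limits what single shares and signals can show.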

Other observations

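Strong sites without a DMC1 share but with an H3K4me3 share were rare: 14 of the 5908 autosomal sites with the highest 25% of DMC1 signals, 0.237%. Cntnap2 held 2 of these 14. A further 5 also lay on chromosome 6, at 38211539, 47869207, 53480245, 54109613 and 55505658, all CAST sites with DMC1 of 225 to 570, and the remaining 7 were spread over chromosomes 1, 3, 4, 8 and 9. Counting sites of any strength, an H3K4me3 share without a DMC1 share was found at 9 of 51 sites in the window of 45 to 50 Mb of chromosome 6, which contains Cntnap2, or 17.6%, and at 12 of 84 in the next 5 Mb, or 14.3%, against 3.03% of all autosomal sites. Among 444 autosomal windows of 5 Mb with at least 20 sites these ranked 2nd and 8th. This was noticed after the data had been examined, was not tested, and means that the DMC1 homologue shares of Cntnap2 leave out 2 of its strongest sites.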
